A study of Mus musculus with 6 samples.

Results

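Epithelial-mesenchymal transition (EMT), the change by which epithelial cells loosen their junctions and take on a migratory form, is driven by a small set of transcription factors and accompanied by a switch in splicing. The genes described here are 10 of its regulators: the zinc-finger repressors Snai1, Snai2 and Snai3, the basic helix-loop-helix factors Twist1 and Twist2, the zinc-finger homeobox factors Zeb1 and Zeb2, the homeobox factor Prrx1, and the epithelial splicing regulators Esrp1 and Esrp2. They were chosen by name. Of the 10, 9 had a probe set annotated to that gene alone, among 22180 genes tested. Zeb2 had none and is not analysed here as a gene.

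The cells were untreated mouse cell lines transformed by NeuNDL, a mutant and constantly active Neu (ErbB2) receptor tyrosine kinase, and were grown in serum with a mammary epithelial supplement. All 6 arrays came from such cells: 3 were wild-type for SLK and 3 were SLK knockout, SLK being a Ste20-like kinase that takes part in the turnover of focal adhesions and in migration. The series speaks of cultures at passages 9, 19 and 29, but no label says which passage, clone or line an array came from. Every p therefore reflects the spread between these arrays, which may be technical or may include passage. If the arrays of each genotype came from a single line or clone, a line difference cannot be told apart from loss of SLK. No animal age or strain, and no account of which part of Slk was removed, is given in the sources used here. The question was whether these regulators, or the genes they are known to act on, had different levels in knockout and wild-type arrays.

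As background, SNAI, ZEB and TWIST proteins bind E-boxes in the promoters of epithelial genes such as Cdh1 (E-cadherin) and repress them with the help of corepressors. PRRX1 promotes migratory, mesenchymal states. ESRP1 and ESRP2 are RNA-binding proteins that keep the epithelial form of many transcripts, among them those of Fgfr2, Cd44, Ctnnd1 and Slk itself, and ZEB1 and the SNAI factors can repress their genes. MicroRNAs of the miR-200 family in turn restrain ZEB1 and ZEB2.

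The E-box word searched here was CAGGTG, which reads CACCTG on the other strand. No other motif was searched. It was looked for on both strands of the RefSeq promoter windows (GRCm38.p6; 250 bases before to 50 after a gene's start, 300 in all). The windows of Snai1, the only factor among the 4 matched and measured ones to hold the word, and of 3 epithelial genes discussed below are printed because such repressors are known to bind E-boxes near gene starts. Each is given 5′ to 3′ in lower case with every E-box word in capitals: Snai1 at chr2:167537945-167538244 (+), Lsr at chr7:30973420-30973719 (-), Epcam at chr17:87635729-87636028 (+) and Rab25 at chr3:88548230-88548529 (-).
Snai1: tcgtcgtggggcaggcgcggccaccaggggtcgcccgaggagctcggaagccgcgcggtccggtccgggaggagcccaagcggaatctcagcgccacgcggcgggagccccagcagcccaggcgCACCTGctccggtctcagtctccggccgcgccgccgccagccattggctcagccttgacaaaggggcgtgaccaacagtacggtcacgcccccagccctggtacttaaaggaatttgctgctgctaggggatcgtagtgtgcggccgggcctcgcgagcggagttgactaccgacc
Lsr: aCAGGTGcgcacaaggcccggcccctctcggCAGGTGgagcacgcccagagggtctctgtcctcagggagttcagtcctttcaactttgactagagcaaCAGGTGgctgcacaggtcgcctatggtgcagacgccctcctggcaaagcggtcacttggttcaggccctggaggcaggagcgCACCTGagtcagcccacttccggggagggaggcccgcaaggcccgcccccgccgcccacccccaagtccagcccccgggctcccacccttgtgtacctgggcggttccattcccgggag
Epcam: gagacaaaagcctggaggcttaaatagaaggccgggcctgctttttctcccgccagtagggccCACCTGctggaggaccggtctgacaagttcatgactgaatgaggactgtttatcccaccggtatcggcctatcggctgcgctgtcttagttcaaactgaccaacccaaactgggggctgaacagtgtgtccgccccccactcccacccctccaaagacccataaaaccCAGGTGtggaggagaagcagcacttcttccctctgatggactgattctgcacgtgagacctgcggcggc
Rab25: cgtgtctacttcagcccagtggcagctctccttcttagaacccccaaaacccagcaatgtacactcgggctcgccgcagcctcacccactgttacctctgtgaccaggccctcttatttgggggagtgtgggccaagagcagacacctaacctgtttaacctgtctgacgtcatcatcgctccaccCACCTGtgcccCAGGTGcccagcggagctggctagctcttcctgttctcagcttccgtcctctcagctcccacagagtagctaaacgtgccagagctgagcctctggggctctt

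Lsr held 4 copies of the word, Epcam and Rab25 2 each, and Snai1 1. The windows of Twist1, Twist2 and Prrx1 held none. Snai2, Snai3, Zeb1, Esrp1, Esrp2 and Cdh1 were not matched in the promoter table. Of 24 measured epithelial adhesion and junction genes with a window, 19 (79.2%) held at least 1 copy, against 22.6% of all 27025 genes in the table, and 12 of the 24 held 2 or more, against 3.32%. Of 15 measured mesenchymal genes with a window, 2 (13.3%) held it, a comparison added after the values were seen. A match of letters is a description and does not show that a factor was bound.

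The targeted gene and the whole comparison were checked before the regulators. The Slk signal was 8.21, 8.30 and 8.34 on wild-type arrays 1 to 3 and 7.14, 7.21 and 7.20 on knockout arrays 1 to 3, 2.15-fold lower in knockout (limma, adjusted p = 0.0021). All signals are log2 values of a probe set. Array medians lay between 3.93 and 3.97, and arrays correlated across probe sets with r of 0.990 to 0.994. The threshold was an adjusted p of 0.05 from limma with Benjamini-Hochberg adjustment over all genes. At that threshold 97 of 22180 genes (0.437%) were called, 72 higher (0.325%) and 25 lower (0.113%) in knockout. Precision is limited by the 3 arrays in each group.

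None of the 9 measured regulators passed this threshold, although 5 had an unadjusted p under 0.05, as did 10.2% of all genes. The nearest was Esrp2, with a 1.30-fold lower signal in knockout and an adjusted p of 0.066. Knockout arrays lay wholly below wild-type arrays for Esrp2, Twist2 and Snai3 and wholly above them for Zeb1 and Prrx1. Such separation was seen in 16.9% of all genes. For Snai1, Snai2, Twist1 and Esrp1 the groups overlapped. The median log2 difference over the 9 genes was -0.016, beside 0.0038 over all genes.

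**Figure D1:**
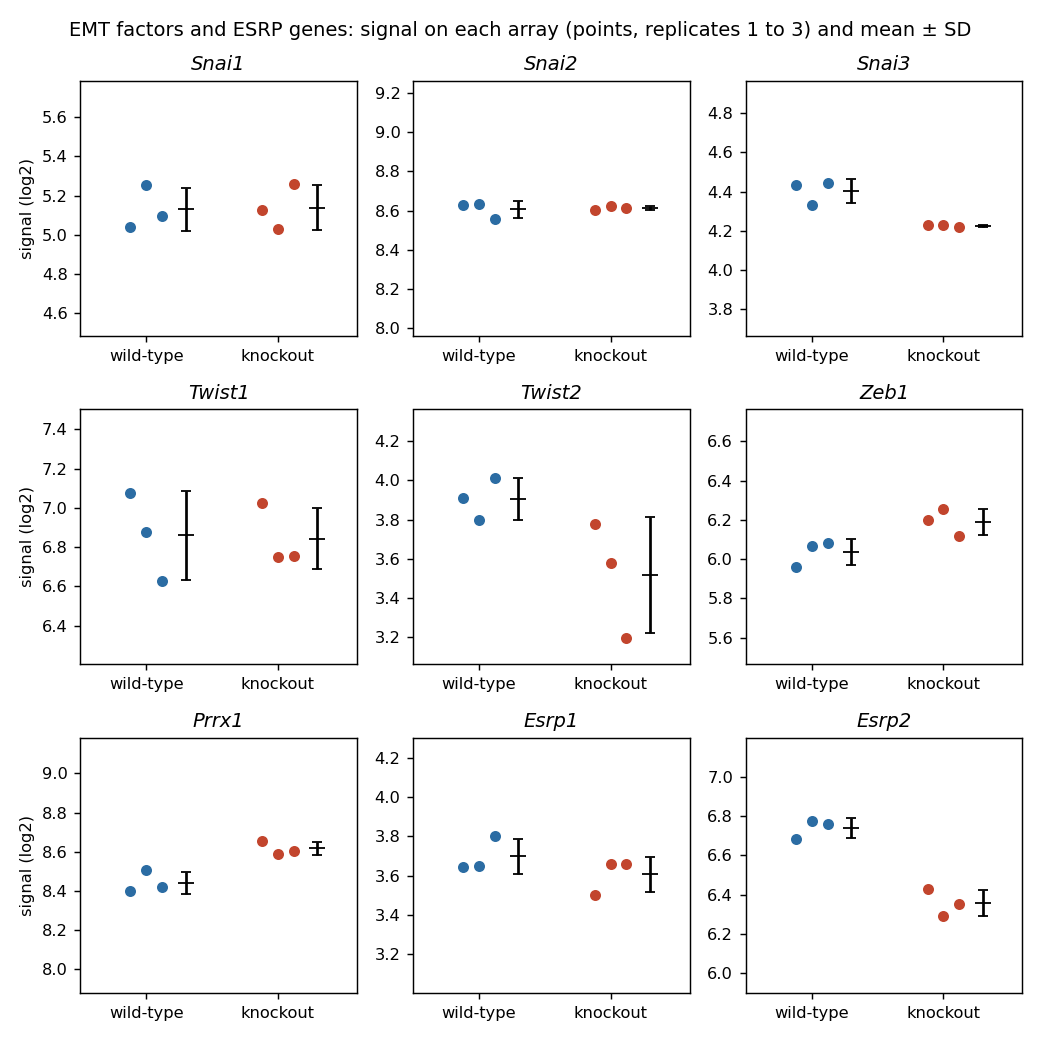
Signal (log2, vertical axis; every panel spans the same range around its own mean) of each measured regulator on the 3 wild-type (blue) and 3 knockout (red) arrays, with the group mean and SD in black. Esrp2 has means of 6.74 and 6.36 with no shared range, while Snai1, Snai2, Twist1 and Esrp1 overlap.

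Among the SNAI repressors, Snai1, which starts EMT in many settings, had signals of 5.04, 5.25 and 5.10 on wild-type arrays and 5.12, 5.03 and 5.26 on knockout arrays. The groups were interleaved. Its log2 difference was 0.0099, with a 95% interval from limma of -0.19 to 0.21 and an adjusted p of 0.98. Snai2 (Slug), known in the mammary gland for its place in basal and progenitor cells, had 8.63, 8.64 and 8.56 against 8.60, 8.62 and 8.62. These 6 values nearly coincided, and the log2 difference of 0.0064 (interval -0.11 to 0.12, adjusted p = 0.98) was the smallest of the 9 genes.

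Snai3, the least studied of the family, had 4.43, 4.33 and 4.44 in wild-type cells and 4.23, 4.23 and 4.22 in knockout cells. The knockout values were nearly identical, and each lay below every wild-type value. The log2 difference was -0.18 (SE 0.05, limma), with an adjusted p of 0.32, so it did not pass. Its signal was close to that of the median gene (4.39), where log2 array values compress differences.

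Twist1, a factor of mesoderm and of invasive tumour cells, had 7.08, 6.88 and 6.63 in wild-type cells and 7.03, 6.75 and 6.76 in knockout cells. The SD was 0.22 in wild-type and 0.16 in knockout cells (n = 3 each), more than the shift between them. The log2 difference was -0.016 (interval -0.33 to 0.30, adjusted p = 0.98). Genes on its chromosome, 12, had a median log2 difference of 0.044, and 67.3% of them had a higher mean in knockout, against 51.5% of all genes placed on a chromosome. What part this had in its value was not tested.

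Twist2, its close relative, had 3.91, 3.80 and 4.01 in wild-type cells and 3.78, 3.58 and 3.20 in knockout cells. The knockout arrays were all lower, but knockout array 1 lay only just below wild-type array 2, and knockout array 3 stood lowest. The log2 difference of -0.39 had an SE of 0.15 and an adjusted p of 0.45 (limma). Leaving out single arrays moved it between -0.52 and -0.23, the smallest size without knockout array 3. The signal was dim, below that of the median gene, so its size is uncertain.

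Zeb1, the repressor most closely tied to the miR-200 loop, had 5.96, 6.07 and 6.08 in wild-type cells and 6.20, 6.25 and 6.12 in knockout cells. All knockout arrays were higher, but knockout array 3 lay only just above wild-type array 3. The log2 difference was 0.15 (SE 0.06, adjusted p = 0.47). Genes on its chromosome, 18, had a median log2 difference of 0.058, and 70.6% of the 521 had a higher mean in knockout. The part of this shift in the Zeb1 value was not tested.

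Prrx1 had 8.40, 8.51 and 8.42 in wild-type cells and 8.66, 8.59 and 8.61 in knockout cells, again with every knockout array above every wild-type array. The log2 difference was 0.17 (SE 0.05), a 1.13-fold higher signal, with an adjusted p of 0.33. With a variance that follows intensity it came to the threshold (adjusted p = 0.050, and 0.049 with robust estimation), and under no other setting did it pass. Genes on its chromosome, 1, had a median of -0.0015.

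Esrp1, the dominant ESRP of many epithelia, had a dim signal of 3.64, 3.65 and 3.80 in wild-type cells and 3.50, 3.66 and 3.66 in knockout cells. The groups overlapped, with a log2 difference of -0.09 (interval -0.27 to 0.08, adjusted p = 0.73). A low array value does not show that the gene was off.

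Esrp2 had 6.68, 6.78 and 6.76 in wild-type cells and 6.43, 6.29 and 6.35 in knockout cells. The gap between the groups, from 6.43 to 6.68, was wider than the range within either group. The log2 difference was -0.38 (SE 0.06, interval -0.52 to -0.24), and it lay between -0.42 and -0.35 whichever array was left out. The adjusted p of 0.066 went to 0.028 and 0.0086 when the dimmest 30% or 50% of genes were left out, and to 0.0040 with an intensity trend. With single arrays left out it was 0.15 to 0.26.

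**Figure D2:**
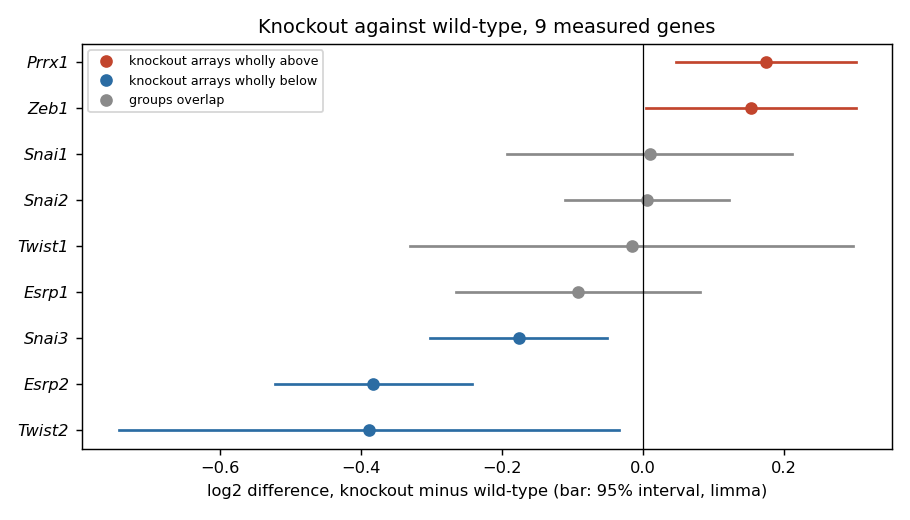
Log2 difference, knockout minus wild-type, of each measured regulator (point) with its 95% interval from limma (bar, not adjusted for multiple genes); colour gives whether the groups overlap. Esrp2 (-0.38) has the interval farthest from 0, and the interval of Twist2 (-0.39) is wide and nearly reaches 0.

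Whether relatives differed in their response was tested on the difference of their signals within each array. For Twist1 minus Twist2 it was 2.95 ± 0.30 in wild-type and 3.33 ± 0.21 in knockout cells (SD, n = 3 each), a shift of 0.37 (two-sided exact permutation test, p = 0.10, the smallest that 3 against 3 allows; 0.15 after Benjamini-Hochberg adjustment over 3 pairs). Esrp1 minus Esrp2 shifted by 0.29, from -3.04 ± 0.09 to -2.75 ± 0.15 (SD, n = 3 each), with the same exact p of 0.10 and 0.15 adjusted. In both pairs all 3 knockout arrays lay above all 3 wild-type arrays. Twist2 and Esrp1 were dim beside their relatives, and log2 array values compress differences of dim genes. What part this had in the shifts was not tested. Snai1 minus Snai2 shifted by 0.0035 (exact permutation p = 1). This design cannot reach 0.05, so an unequal response of the Twist or Esrp relatives was not established. Zeb1 and Zeb2 could not be compared.

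Epithelial adhesion and junction genes, the class that EMT factors repress, had a lower mean in knockout cells in 25 of 34 measured, beside 10751 of all 22180. Of these 34, 2 were called lower and none higher, beside 0.113% and 0.325% of all genes. They were Cdh1, 1.34-fold lower (adjusted p = 0.022), and Lsr, 1.31-fold lower (adjusted p = 0.049). Lsr encodes a receptor of tricellular junctions. Knockout arrays lay wholly below wild-type arrays for 18 of the 34, against 8.1% of all genes, and wholly above for 6, against 8.79%. The median log2 difference was -0.11, beside 0.0038 over all genes. Lower Cdh1, Epcam and Rab25 in these data were known when the list was drawn up, so it is no independent evidence of direction.

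Cdh1 had 7.80, 7.79 and 7.77 in wild-type cells and 7.37, 7.36 and 7.35 in knockout cells, very tight within each group. Lsr, whose window with 4 E-box words is printed above, had 6.45, 6.52 and 6.45 against 6.14, 6.07 and 6.06. Both calls were lost whichever single array was left out, with adjusted p of 0.098 to 0.13 for Cdh1 and 0.14 to 0.19 for Lsr. Averaged with a second, dim probe set, Cdh1 had a log2 difference of -0.27 and an adjusted p of 0.45, and the mean over the probe sets of Lsr gave -0.20 and 0.39. Lsr also lost its call with quantile normalization and with median centring.

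Further members of the group did not pass but lay apart on every array. Rab25, a small GTPase of epithelial recycling, had a log2 difference of -0.50 (adjusted p = 0.088). Epcam, an epithelial adhesion molecule, had -0.35 (adjusted p = 0.083). The claudin Cldn7 (-0.48), tricellulin, encoded by Marveld2 (-0.43), occludin, encoded by Ocln (-0.37), and the membrane serine protease gene St14 (-0.35) had adjusted p of 0.11 to 0.15. In the other direction Dsc2, a desmosomal cadherin, had 0.40 (adjusted p = 0.077), and the simple-epithelial keratins Krt8 and Krt18 had 0.15 and 0.14 (adjusted p = 0.37 and 0.40). Of the 13 epithelial genes with a promoter window and all knockout arrays lower, 11 held an E-box word, and of the other 11 genes 8 did.

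**Figure D3:**
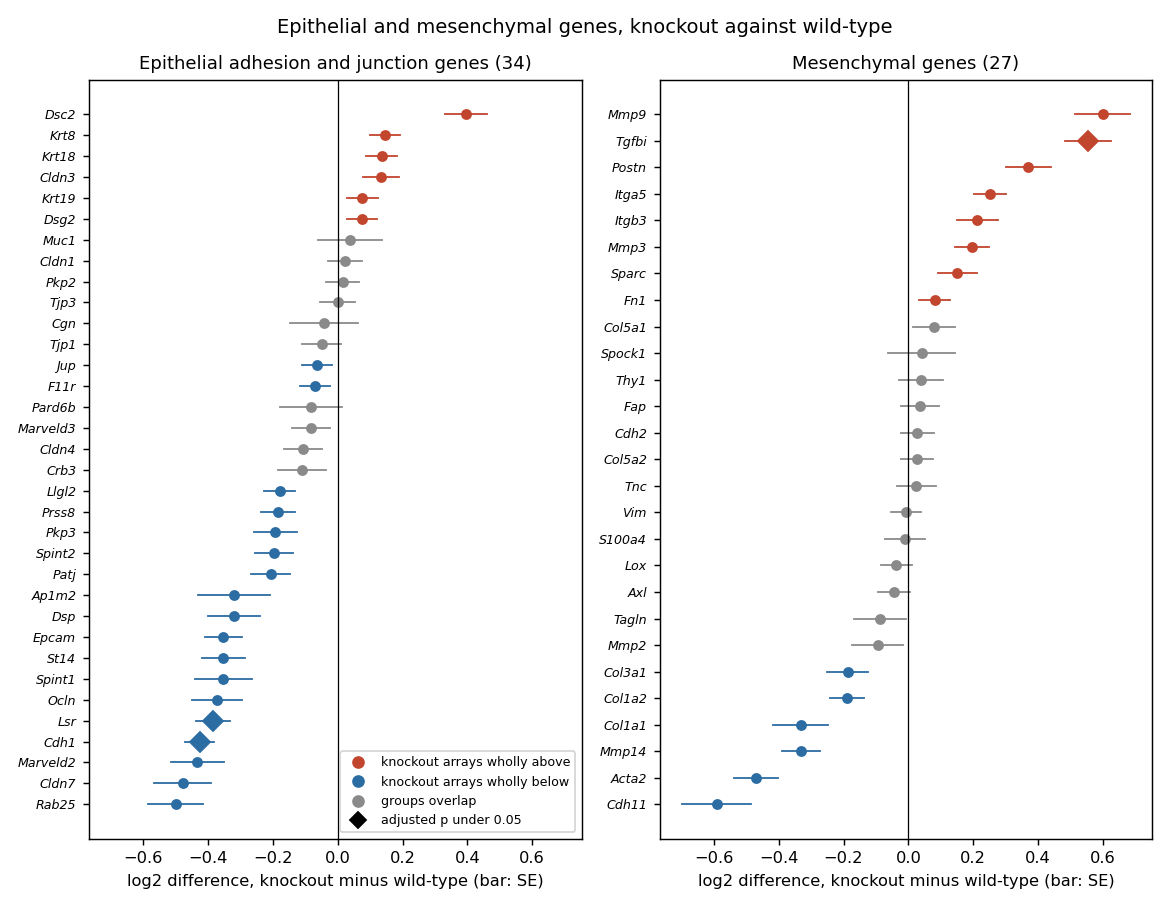
Log2 difference, knockout minus wild-type, with its limma SE for 34 epithelial (left) and 27 mesenchymal genes (right), sorted by size; diamonds mark adjusted p under 0.05 and colours whether the groups overlap. On the left 18 genes have all knockout arrays lower and 6 all higher, and on the right these counts are 6 and 8.

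Mesenchymal genes lay on both sides of 0. Of 27 measured, 1 was called higher and none lower, beside 0.325% and 0.113% of all genes. The gene called was Tgfbi, a matrix protein gene induced by TGF-beta (1.47-fold, adjusted p = 0.038). The median was 0.026, and knockout arrays lay wholly above for 8, against 8.79% of all genes, and wholly below for 6, against 8.1%. The classical markers Vim (vimentin), Cdh2 (N-cadherin) and Fn1 (fibronectin) had log2 differences of -0.0065, 0.028 and 0.081, with adjusted p of 0.98, 0.90 and 0.65. Cdh11, another mesenchymal cadherin, had -0.59 (adjusted p = 0.10), the smooth muscle actin gene Acta2 -0.47 (0.055), and the gelatinase gene Mmp9 0.60 (0.054). The Tgfbi call was lost whichever array was left out (adjusted p of 0.10 to 0.16). With median centring Tgfbi lost it too (0.056) and Acta2 was called lower (0.043), so that the list then had 0 genes higher and 1 lower.

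TWIST proteins act as dimers with E proteins, and the Id proteins bind E proteins without binding DNA. Of these 7 partners and inhibitors 1 was called lower, Id4 (1.36-fold, adjusted p = 0.038), and none higher. Of all genes 0.113% were called lower and 0.325% higher. Id4 had 7.97, 8.05 and 8.01 against 7.57, 7.63 and 7.50, with no overlap, and its adjusted p was 0.098 to 0.18 with single arrays left out. Id3 had a log2 difference of -0.17 and the E protein gene Tcf3 one of -0.08, neither past the threshold. All 7 means were lower in knockout, as were 10751 of the 22180 gene means.

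Transcription factors that hold the epithelial state gave no call among 14 measured (5 with an unadjusted p under 0.05, as had 10.2% of all genes). Grhl2, which opposes ZEB1, had a log2 difference of 0.031 (adjusted p = 0.88), Gata3, the luminal factor, -0.20 (0.22), Klf5 -0.18 (0.26) and Ehf 0.22 (0.32). Among 17 other transcription factors linked to EMT none passed, with 4 at an unadjusted p under 0.05. Sox9 had -0.27 (adjusted p = 0.18), Foxc1 -0.30 (0.20) and Tbx3 0.25 (0.32). The medians of these lists were 0.040 and 0.077.

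The machinery around the SNAI and ZEB proteins was measured as mRNA only, so protein stability was not seen. None of 14 corepressor and chromatin genes passed (1 at an unadjusted p under 0.05): the LIM protein gene Ajuba had a log2 difference of -0.22 (adjusted p = 0.19), Suz12 -0.06 and Kdm1a -0.05. None of 12 genes of SNAI and TWIST protein turnover passed, and none had an unadjusted p under 0.05, with Lats2 at -0.09, Prkd1 at 0.08 and Fbxl14 at -0.07. The medians were -0.016 and -0.0093.

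For the splicing side, 21 further RNA-binding regulators of EMT splicing gave no call, with 2 at an unadjusted p under 0.05 and a median of 0.0034. Rbm47, an epithelial splicing factor, had a log2 difference of -0.26 (adjusted p = 0.27), with knockout arrays wholly below. Mbnl3 had 0.15 (adjusted p = 0.41), Rbms3 0.12 (0.58), and Rbfox2, which acts on some of the same exons as the ESRPs, 0.043 (0.88). Of 14 genes that hold ESRP-switched exons only Slk, the targeted gene, was called, and it was lower. Knockout arrays lay wholly above for 5, against 8.79% of all genes, and wholly below for 2, Slk among them, against 8.1%. Enah, the actin regulator Mena, had 0.60 (adjusted p = 0.15) from a dim signal, Ralgps2 0.33 (0.19), Cd44 -0.08 (0.65), Ctnnd1 0.049 (0.80) and Fgfr2 -0.039 (0.93). These are signals of whole genes and say nothing of which exons were used.

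The microRNA genes of the loop were compared through probe sets of their loci. Their mature strands are printed, 5′ to 3′ from RefSeq (GRCm38.p6), because the seed, bases 2 to 8 in capitals, groups them.
mmu-miR-200a-3p: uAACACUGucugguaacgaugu
mmu-miR-141-3p: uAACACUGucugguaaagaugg
mmu-miR-200b-3p: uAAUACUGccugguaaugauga
mmu-miR-200c-3p: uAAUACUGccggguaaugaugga
mmu-miR-429-3p: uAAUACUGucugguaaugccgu
mmu-miR-205-5p: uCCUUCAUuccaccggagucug
mmu-miR-34a-5p: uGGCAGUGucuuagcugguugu

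Of the miR-200 family, miR-200a and miR-141 share the seed AACACUG, and miR-200b, miR-200c and miR-429 share AAUACUG, while miR-205 and miR-34a, the latter known to target Snai1, have seeds of their own. None of 11 measured microRNA genes passed (1 at an unadjusted p under 0.05), and Mir429 was not analysed here. Mir200c had 3.47, 2.99 and 3.17 in wild-type cells and 2.49, 3.14 and 2.79 in knockout cells, which overlap. Its log2 difference was -0.41 (SE 0.19, adjusted p = 0.53), that of Mir141, its neighbour in one transcript, -0.21 (0.71), and those of Mir200a and Mir200b -0.0027 and -0.023. Mir34a had -0.29 (0.54) and Mir205 0.14 (0.48). All were dim, and such probe sets do not measure the mature strand.

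Over the 6 arrays the genes whose signal ran most like that of Esrp2, the regulator with the smallest p, were Llgl2, a polarity gene (Pearson's r = 0.997), Gm2a (0.997), Mrgpra9 (0.995), Cyp2u1 (0.993) and Tlr3 (0.993). Of 22180 genes, 120 others had r above 0.95 with Esrp2. Since Esrp2 differed between the groups, an r this high over 6 arrays largely restates a lower signal in knockout. It does not show shared regulation. Of the 5 only Mrgpra9 was called (lower, limma adjusted p = 0.038), from a dim signal (mean 2.59), and the others had adjusted p of 0.11 to 0.33. Esrp2 and Cdh1 lie on the same chromosome, 8, with 8 tested genes between them. None of those 8 was called or had an unadjusted p under 0.05, and their log2 differences ran from -0.17 to 0.17, with 4 higher and 4 lower.

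Markers of the cells that could carry these regulators were compared as the sum of their unlogged signals on each array. In these bulk RNA samples fewer cells of a type and less RNA per cell cannot be told apart. The 11 basal markers summed to 958 to 978 in wild-type and 762 to 799 in knockout arrays, and Krt14 fell 1.58-fold (adjusted p = 0.0096). That gap rested on Krt14 and Acta2: without them, a choice made after the values were seen, the other 9 summed to 418 to 425 and 403 to 425. Such sums mostly follow their brightest markers. Among these 9 it was Itgb4, with a mean of 8.20 in wild-type and 8.13 in knockout cells, so the sum says little of the others. Mylk, of the same list, had a log2 difference of 0.42 with knockout arrays wholly above (adjusted p = 0.20). The 12 luminal markers summed to 3730 to 3789 and 3916 to 3978, with no call. This higher sum rested on the bright keratins Krt8 and Krt18. Without them, again a choice made after the values were seen, the sum of the other 10 was lower. It was 1047 to 1060 in wild-type and 938 to 966 in knockout arrays. That lower sum rested in turn on Gata3 and Epcam, the brightest of the 10. Epcam (-0.35), Gata3 (-0.20) and Esr1 (-0.22) were lower on every knockout array, Esr1 only just. Cldn3 (0.13) and Krt19 (0.076) were higher on every knockout array. Of all 12 luminal means 7 were higher and 5 lower. The 12 fibroblast markers summed to 789 to 837 and 781 to 805, and Pdgfrb fell 1.59-fold (adjusted p = 0.0066). Of these 12 means 6 were higher and 6 lower. Knockout arrays lay wholly above for 3, against 8.79% of all genes, among them Dcn (0.43, adjusted p = 0.10) and Postn (0.37, adjusted p = 0.11). They lay wholly below for 4, against 8.1%: Pdgfrb, Col1a1 (-0.33), Col1a2 (-0.19) and Col3a1 (-0.19). The 9 leukocyte (213 to 225 and 212 to 232), 10 endothelial (133 to 149 and 139 to 144) and 7 neural crest markers (437 to 477 and 459 to 505) overlapped between the groups, though Sox10, of the last list, rose 2.77-fold (adjusted p = 0.0093). The brightest leukocyte marker was Cd68 (means 7.15 in wild-type and 7.10 in knockout cells). The brightest neural crest marker was Tfap2a (7.97 and 7.82), and both weigh most in their sums. With single arrays left out the adjusted p was at most 0.073 for Krt14, 0.050 for Pdgfrb and 0.062 for Sox10. The pan-leukocyte gene Ptprc was at 2.03 to 2.33 on all arrays. The part of the basal and luminal sums in the values of the regulators was not tested.

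**Figure D4:**
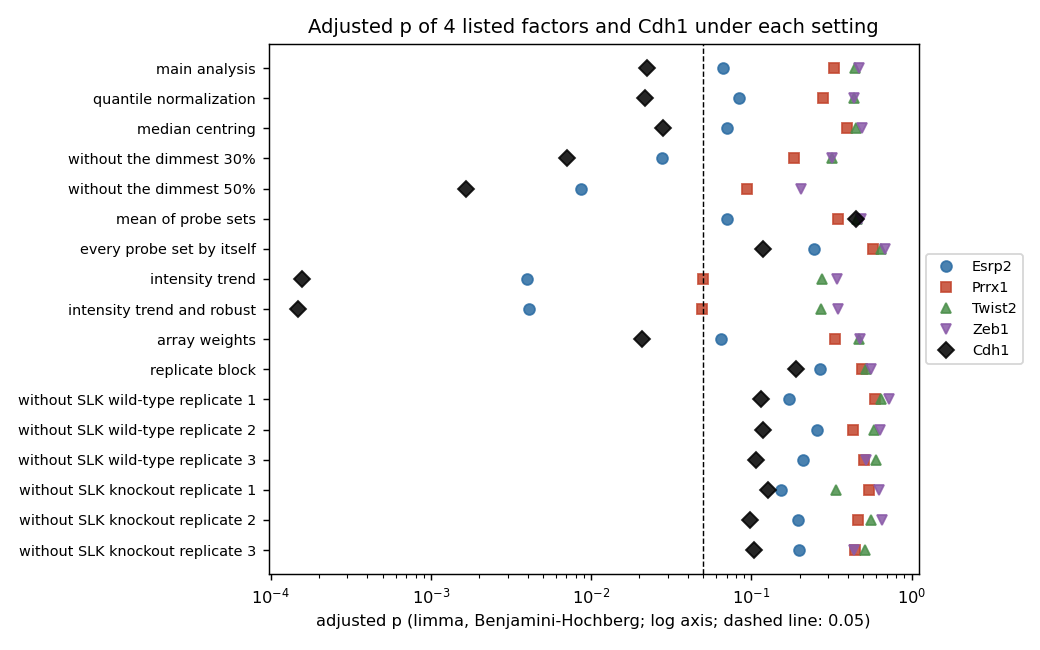
Adjusted p (log axis; dashed line at 0.05) of Esrp2, Prrx1, Twist2, Zeb1 and, for comparison, Cdh1 in the main analysis and under each alternative setting named on the vertical axis. Esrp2 passes in 4 settings and Prrx1 in 2, Twist2 and Zeb1 in none, and with any array left out no gene plotted passes.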

How the data were processed

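Total RNA was biotin-labelled and measured on 6 one-colour arrays. The authors deposited log2 values for 41345 probe sets, made with Affymetrix Expression Console 1.4.1.46 per the submitters' processing notes. Background correction, normalization and summarisation: not given in the sources used here. Base 2 was inferred, since the highest value (12.4) is above what a natural logarithm allows on a 16-bit scanner (11.1). Values of this kind compress differences of dim genes.

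The platform's annotation gave 23521 probe sets 1 symbol, 1814 several, and did not list 16010. Per symbol the single-symbol probe set with the highest mean was kept (22180 genes). Groups came from the titles. The test was limma 3.58.1 (R 4.3.3; two-sided, all arrays, no covariate), which gave every adjusted p. The fit was tested on simulated data, where 44% of 50 log2 changes of 0.5 and 90% of 50 changes of 1 were recovered. All regulator differences were smaller than 0.5, so a regulator that did not pass was not shown to be unchanged.

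The genes, lists and tests were chosen with earlier results of these data known. Named genes were the regulators, Slk, Cdh1, per list the 3 genes of smallest p, and the 5 most like Esrp2. The others named (Rab25, Cldn7, Marveld2, Ocln, St14, Krt18, Vim, Cdh2, Fn1, Cdh11, Grhl2, Rbfox2, Cd44, Ctnnd1, Fgfr2, Esr1, Ptprc, Mir141, Mir200a and Mir200b) and the chromosome values were chosen after values were seen. So were Cldn3, Krt19, Col1a1, Col1a2, Col3a1, Itgb4 and Cd68. Alternatives covered normalization, dim-gene filters, probe set choice, variance models, array weights, a replicate block and single arrays left out.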

Additional observations from a re-analysis of the deposited data

How the results depend on the processing

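No regulator passed in the main analysis, and the counts depended on the setting. With an intensity trend 441 of 22180 genes were called (265 higher, 176 lower) in place of 97. Of the 9 regulators 2 were called in place of 0, Prrx1 higher and Esrp2 lower. So were 12 of 34 epithelial genes (2 higher, 10 lower) and 8 of 27 mesenchymal genes (4 higher, 4 lower). Also called were 3 of 14 ESRP-exon, 2 of 14 epithelial factor, 2 of 17 other EMT factor and 1 of 14 corepressor genes. With robust estimation as well the numbers called were, in the same order, 443, 2, 12, 8, 2, 2, 2 and 1. Without the dimmest 30% of genes, 206 of 15526 genes and 1 of 9 regulators (Esrp2) were called. So were 5 of 34 epithelial genes (1 higher, 4 lower) and 4 of 26 mesenchymal genes (2 higher, 2 lower). Without the dimmest 50%, Snai3, Twist2 and Esrp1 were not tested, and 341 of 11090 genes and 1 of 6 regulators were called. So were 7 of 30 epithelial genes, all lower, and 7 of 21 mesenchymal genes (4 higher, 3 lower). Also called were 2 of 12 ESRP-exon, 1 of 6 epithelial factor, 1 of 12 other EMT factor and 1 of 14 corepressor genes. Array weights gave 110 genes and 3 of 27 mesenchymal genes (2 higher, 1 lower). Quantile normalization gave 102 genes and median centring 87, each with 1 of 34 epithelial genes. With median centring the 1 mesenchymal call was Acta2, lower, in place of Tgfbi, higher. Means of probe sets gave 83 genes and 0 epithelial genes. Testing every probe set by itself gave 29 probe sets and 0 epithelial, 0 mesenchymal and 0 Twist-partner genes. Why the counts moved with the setting was not tested. Leaving out 1 array gave 16 to 28 genes, and 0 regulators, 0 epithelial, 0 mesenchymal and 0 Twist-partner genes each time. Of 60 genes followed, 3 changed sign in at least 1 alternative, all with values near 0: Twist1 had 0.016 with array weights, and with single arrays left out Twist1 ran from -0.13 to 0.092, Snai1 from -0.051 to 0.071, Snai2 from -0.018 to 0.020, and the shift of Snai1 minus Snai2 from -0.057 to 0.062. The shift of Twist1 minus Twist2 ran from 0.20 to 0.48 and that of Esrp1 minus Esrp2 from 0.23 to 0.38.

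Arrays with the same replicate number did not deviate together (correlations 0.044, 0.017 and -0.066 across genes), so the numbers were not taken to pair them. A fit with the replicate block called 6 genes, Slk among them, and 0 epithelial, 0 mesenchymal and 0 Twist-partner genes, and Esrp2 had an adjusted p of 0.27.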

Other observations

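Probe sets annotated to a regulator together with another gene were left out above, and their signal cannot be assigned to either. The probe set listed for Zeb2 and Zeb2os had a mean of 3.04 in wild-type and 3.16 in knockout cells (limma over all probe sets, adjusted p = 0.88), and that listed for Zeb2 and Mir5129 had 5.87 and 5.86 (adjusted p = 0.99). A further probe set, listed for Esrp2 and 1810019D21Rik, had 4.21 and 4.15, a log2 difference of -0.057 (adjusted p = 0.91), beside -0.38 for the probe set of Esrp2 alone.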
